A study of Mus musculus with 5 samples.

Results

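Cytosolic ribosomal proteins are the protein parts of the ribosomes that translate nuclear-encoded messenger RNA. The genes described here were chosen by name: symbols that start with Rpl or Rps and a digit, together with Rpsa, Rplp0, Rplp1 and Rplp2, without the Rps6k kinases, Rps19bp1 and pseudogene symbols that contain -ps. The rule took 84 of the 13966 gene symbols of the deposited table, 50 of the large subunit and 34 of the small subunit. Of these, 77 had a mean normalised read count over the libraries of at least 5.02 and were compared between libraries, 45 of the large and 32 of the small subunit. The 7 others were Rpl22l1, Rpl26, Rpl30, Rpl34, Rpl37rt, Rps27 and Rps4l, and they are described by their values, beside a near-identical copy where one was found.

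The cells were liver hepatocytes of mice of the outbred ICR stock, which had received a fluorescent probe of fatty acid oxidation and were then sorted by flow cytometry. Untreated animals gave a negative and a positive gate. Animals treated with bezafibrate, a fibrate drug that activates the PPAR nuclear receptors, gave a negative, a positive and a high gate. No genetic change is named for any group, and the sources used here give no dose, sex, age or number of mice per library. Each of the 5 groups is 1 library, so no difference has a replicate check, each describes these libraries and not the conditions, and treatment cannot be told apart from mouse. In bulk RNA, fewer cells of a type and less RNA per cell cannot be told apart either. Where 5 values follow one another, they are those of the control negative and positive gates and then of the negative, positive and high gates of bezafibrate mice.

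A ribosome joins a small subunit, which reads the messenger RNA, to a large subunit, which forms the peptide bond. Each ribosome holds about a single copy of nearly every ribosomal protein, and the acidic stalk proteins Rplp1 and Rplp2, carried by Rplp0, are the known exception. Their messenger RNAs are short, abundant, and mostly begin with a C followed by a run of pyrimidines, the terminal oligopyrimidine (TOP) tract, through which the mTORC1 kinase pathway controls their translation.

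Depth was 5056884 to 7146578 reads per library. Values are normalised read counts as deposited, differences are on the log2(value + pseudocount) scale with a pseudocount of 1.0035, and folds are plain ratios with 95% Clopper-Pearson intervals that cover counting error only. The libraries differed in make-up by treatment and, in bezafibrate mice, by gate. Rn45s, from which the ribosomal RNA precursor is transcribed, took 34.8 to 36.3% of reads in the control libraries. In the bezafibrate negative, positive and high gates it took 10.5, 18.5 and 13.5%. The libraries were made after depletion of ribosomal RNA, and the part of that step in these shares was not tested. Alb, the serum albumin gene, had values of 23064 to 24303 in control libraries and of 72188, 48208 and 54530 in those bezafibrate gates. All 10 hepatocyte markers were in the table, and their summed value was 55606 to 126420. Markers of other liver cells were low: 7 of 11 Kupffer cell markers were listed and summed to 4.57 to 9.06, 9 of 10 endothelial markers to 23.7 to 42.6, and 5 of 7 cholangiocyte markers to 53.7 to 79.5. The 8 of 9 stellate cell markers listed, led by Reln, summed to 108 and 115 in control libraries and to 32.9 to 46.1 in bezafibrate libraries. Of 6 neutrophil markers 1 was listed, at 0.666 to 1.58, and 3 of 8 erythroid and platelet markers, led by Alas2, summed to 24.4 to 45.6. None of the 8 T and NK cell or 5 B cell markers was listed. The part of Rn45s, Alb and the stellate markers in the differences below was not tested.

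Ribosomal protein genes took a larger share of reads in the bezafibrate libraries. Together the 84 genes held 17123 and 16808 reads in the control libraries, and 42432, 30770 and 36223 reads in the bezafibrate libraries. This was a share of all reads of 0.314% for control negative, with a 95% Clopper-Pearson interval of 0.309 to 0.319%, and 0.332% for control positive (0.327 to 0.337%). For the bezafibrate gates the shares were 0.594% in the negative (0.588 to 0.599%), 0.513% in the positive (0.508 to 0.519%) and 0.530% in the high gate (0.525 to 0.536%). The bezafibrate libraries were above both control libraries, and the negative gate was the highest of them. With the Rn45s reads left out of the total the order by treatment was the same, and the gap was smaller. The 5 shares were then 0.493%, 0.510%, 0.663%, 0.630% and 0.613%.

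**Figure D1:**
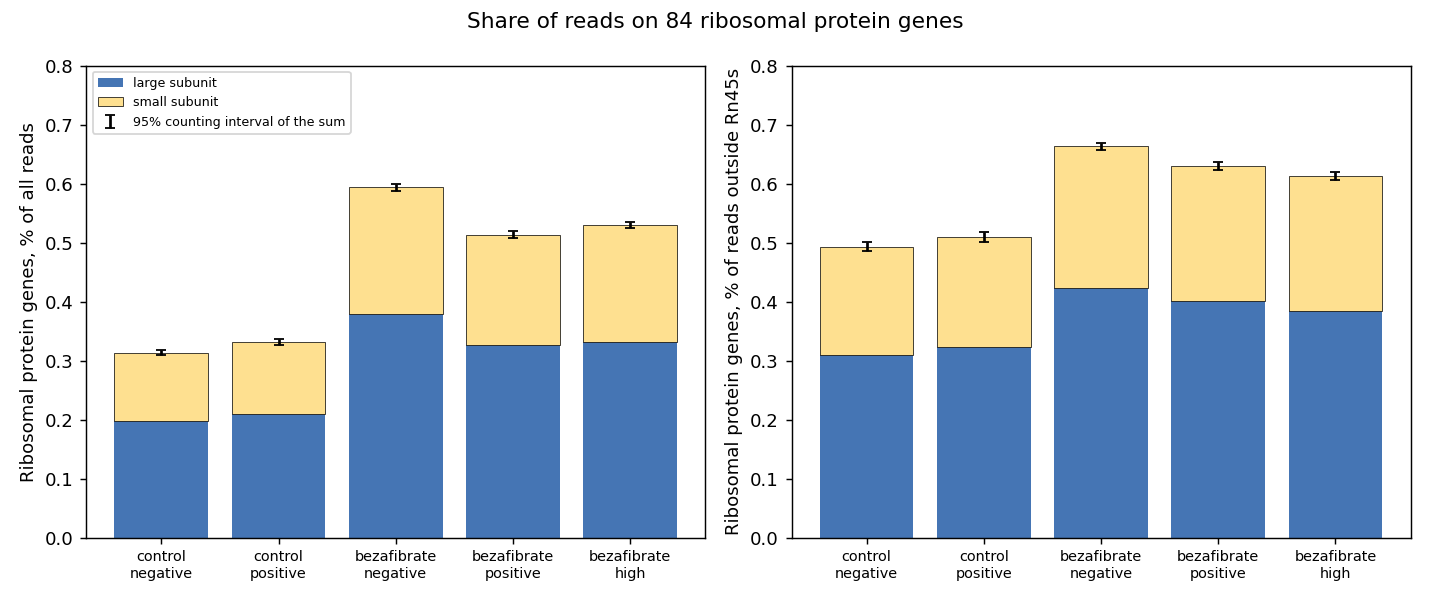
Share of reads on the 84 ribosomal protein genes in each library, in percent of all reads (left) and of reads outside Rn45s (right), with the large subunit below the small; bars mark the 95% counting interval of the sum. The control libraries reach 0.314 and 0.332% of all reads and the bezafibrate libraries 0.513 to 0.594%.

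The balance of the subunits moved little, and furthest between the bezafibrate negative and high gates. The large subunit's part of the ribosomal protein reads was 62.8% for control negative (62.1 to 63.6%) and 63.3% for control positive (62.6 to 64.0%). For the bezafibrate gates it was 63.7% in the negative (63.3 to 64.2%), 63.6% in the positive (63.0 to 64.1%) and 62.7% in the high gate (62.2 to 63.2%). The summed values gave ratios of large to small subunit of 1.69, 1.73, 1.76, 1.75 and 1.68. The ratios of control and bezafibrate libraries overlapped, while the counting intervals of the large subunit's part in the bezafibrate negative and high gates did not.

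Within a subunit the genes differed far more in level than the subunits did. Levels of different genes were compared per kilobase of GENCODE transcript. Among the highest mean levels of small subunit genes over the 5 libraries were those of Rps2 at 240.8, Rps18 at 177, Rps15 at 160 and Rpsa at 87.0 normalised reads per kb. Rps2 and Rps15 sit at the messenger RNA and decoding side of the small subunit, and Rpsa doubles as a laminin-binding protein. Among large subunit genes they were Rpl41 at 214.8, Rpl19 at 148, Rpl36 at 141, Rpl23a at 141 and Rpl7a at 139. Rpl41 encodes one of the smallest known proteins. The genes analysed ranged from 15.6 (Rpl7l1) to 214.8 in the large subunit and from 9.88 (Rps20) to 240.8 in the small subunit. The Rps20 level rests on the single transcript length taken for it, 3706 bases, which is long for this family. Levels per kb of Rpl5, Rps3, Rps24 and Rpsa also rest on long transcripts, of 2045, 1908, 1613 and 1599 bases.

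**Figure D2:**
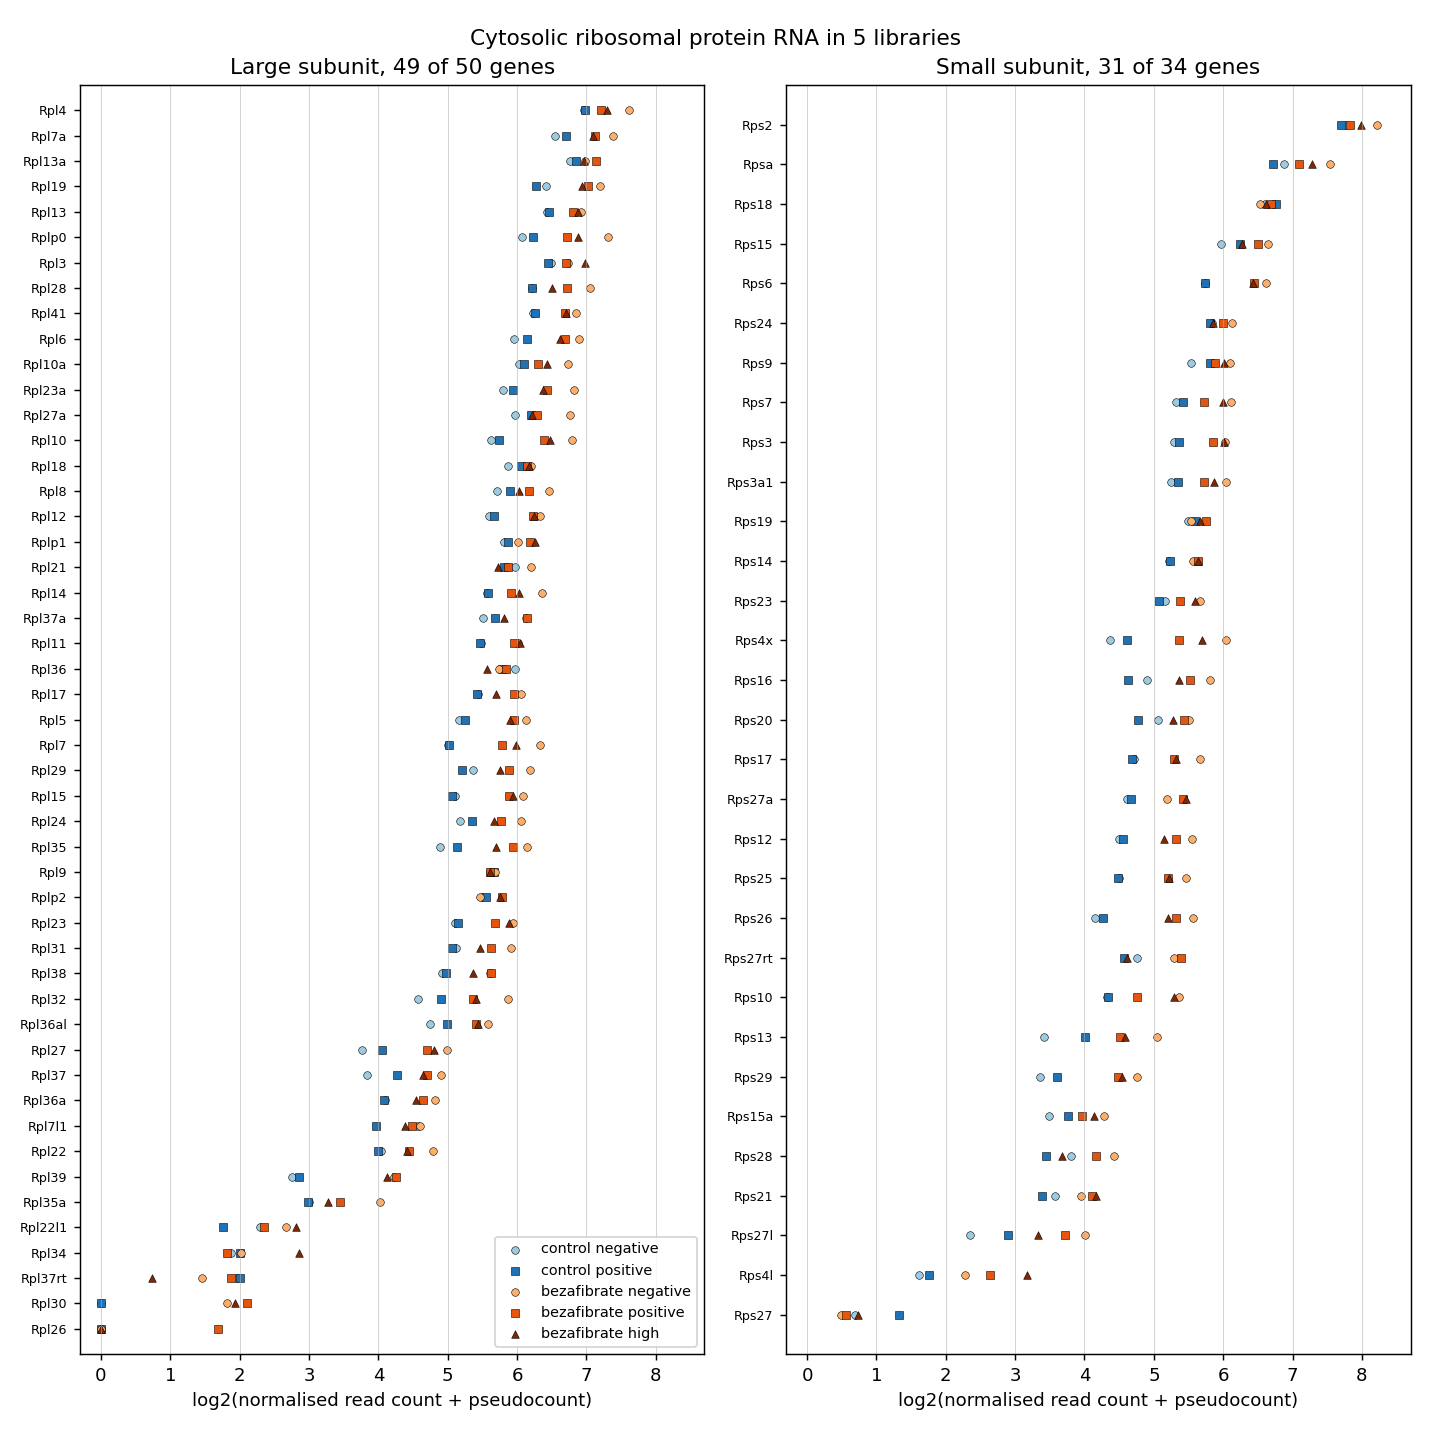
log2(normalised read count + pseudocount) of 80 of the 84 genes in the 5 libraries, one row per gene, ordered by mean value within the large (left) and small (right) subunit. The orange and brown symbols of the bezafibrate libraries lie to the right of the blue control symbols for most genes, while Rps18, Rpl36 and Rpl9 show them together.

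The bezafibrate and control libraries were compared in the negative and in the positive gate. In the negative gate the median difference over the 77 genes was 0.76 and 74 genes were higher in bezafibrate, against a median of 0.02 and 51.4% of genes higher over all 8973 genes analysed. The count of genes at 2-fold or more was 18, against 10.2% of all genes, and 0 were 2-fold lower, against 5.86%. The remaining 3 genes were lower, against 48.6%. For the positive gate the median was 0.48, with 75 genes higher and 2 lower, against 0.00, 50.4% and 49.6% over all genes. Only Rpl39 and Rps26 reached 2-fold there, against 4.94% of all genes, and 0 genes were 2-fold lower, against 2.91%. The counting interval of the fold lay above 1 for 69 genes in the negative gate, against 32.3% of all genes, and for 63 in the positive gate, against 25.9%. It lay below 1 only for Rpl36 in the negative gate, against 29% of all genes, and for 0 of the 77 in the positive gate, against 24.4%. Summed over the 77 genes, the bezafibrate value was 1.61 times the control value for the negative gates (1.58 to 1.64) and 1.34 times for the positive ones (1.31 to 1.36).

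With a limit of 1.5-fold, 54 of the 77 genes were higher in the negative gate, against 22.6% of all genes, and 25 in the positive gate, against 15.7%. In neither gate was any of the 77 lower, against 17.5% and 11.6%. The 2-fold counts moved with the scaling, as did those of all genes. Column totals gave 37 and 8 genes, against 16.1% and 9.12% of all genes. Totals that leave out Rn45s gave 8 and 1, against 6.07% and 3.71%. Signs of single genes changed for 3 and 2 genes with column totals and for 8 and 5 without Rn45s.

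All 3 bezafibrate libraries were above both control libraries for 68 of the 77 genes, 40 of the large and 28 of the small subunit. This held for 35.7% of all genes. No ribosomal protein gene analysed had all 3 below, against 33.8% of all genes. The 9 genes with overlapping libraries were Rpl21, Rpl36, Rpl7l1, Rpl9, Rplp2, Rps18, Rps19, Rps27rt and Rps28. The bezafibrate negative library held the highest value for 61 of the 77 genes, 36 of 45 large and 25 of 32 small. The lowest value was in control negative for 48 genes and in control positive for 25. Shares of all genes were not counted for the highest and lowest library, so these counts only describe the 77 genes.

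Rps4x, the X-linked small subunit gene at chrX:102184941-102189394 (GRCm38, minus strand), showed the largest log2 difference of the negative gates with the pseudocount; by plain fold Rps27l and Rps13 were above it. Its values were 19.7, 23.5, 64.9, 40.2 and 50.8. The groups did not overlap, and the log2 difference was 1.67 in the negative gate (3.29-fold, 2.64 to 4.14) and 0.75 in the positive gate. Rps27l, a p53-responsive paralogue of Rps27, had values of 4.11, 6.47, 15.1, 12.1 and 9.06. It was 3.67-fold higher in the bezafibrate negative gate, with an interval of 2.27 to 6.23 that shows how few reads it had.

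Rps13, at chr7:116331505-116334195, had values of 9.65, 15.1, 32.1, 21.9 and 23.1. It was 3.33-fold higher in the bezafibrate negative gate (2.43 to 4.65), and the lower control value was that of the negative gate. Rpl39, a very small X-linked protein of the peptide exit tunnel at chrX:37082520-37085402, had 5.75 and 6.25 in control and 17.7, 18.1 and 16.4 in bezafibrate libraries. Its log2 difference was 1.47 in the negative gate and 1.40 in the positive gate, the highest of the positive gates (2.90-fold, 1.92 to 4.52). Its control and bezafibrate values did not overlap, and the control values rest on 28 and 29 reads. Rps26, which contacts the messenger RNA upstream of its start codon, had 16.8 and 18.3 in control and 46.3, 38.8 and 35.7 in bezafibrate libraries. Its folds by treatment were 2.75 (2.15 to 3.54) for the negative and 2.12 (1.65 to 2.74) for the positive gates. Rps29, a small zinc-binding protein, had 9.24 and 11.2 in control and 26.0, 21.4 and 22.4 in bezafibrate libraries, without overlap. Among the positive gates Rps16, Rps29 and Rps27rt came next after Rpl39 and Rps26, with log2 differences of 0.89, 0.88 and 0.83.

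At the other end were genes whose bezafibrate and control values lay together. Rps18, at chr17:33951999-33956001, had values of 96.5, 108, 91.0, 103 and 96.9. Its log2 differences were -0.08 in the negative gate (0.943-fold, 0.838 to 1.06) and -0.07 in the positive gate (0.952-fold, 0.846 to 1.07), and its control and bezafibrate values overlapped. Rpl36 had 61.6 and 53.9 in control and 52.5, 56.3 and 46.2 in bezafibrate libraries, with a fold of 0.853 in the negative gate (0.732 to 0.994) and 1.04 in the positive gate (0.886 to 1.23). Rpl9 had 47.6 and 49.8 in control and 50.4, 47.8 and 47.8 in bezafibrate libraries, which all overlapped. Rps19, the gene most often mutated in Diamond-Blackfan anaemia, had 43.9 and 47.2 in control and 45.6, 52.8 and 49.7 in bezafibrate libraries. Rpl7l1, a paralogue of Rpl7 linked to ribosome assembly, had 22.8 and 14.7 in control and 23.2, 21.4 and 19.9 in bezafibrate libraries. Rps9 and Rpl21 were among the 5 smallest differences of the positive gates, both at 0.06. The folds of single genes differed from that of the family: for 16 genes the counting interval of the negative gate lay below the summed fold of the family, and for 21 above it. For the positive gates 12 lay below and 16 above.

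**Figure D3:**
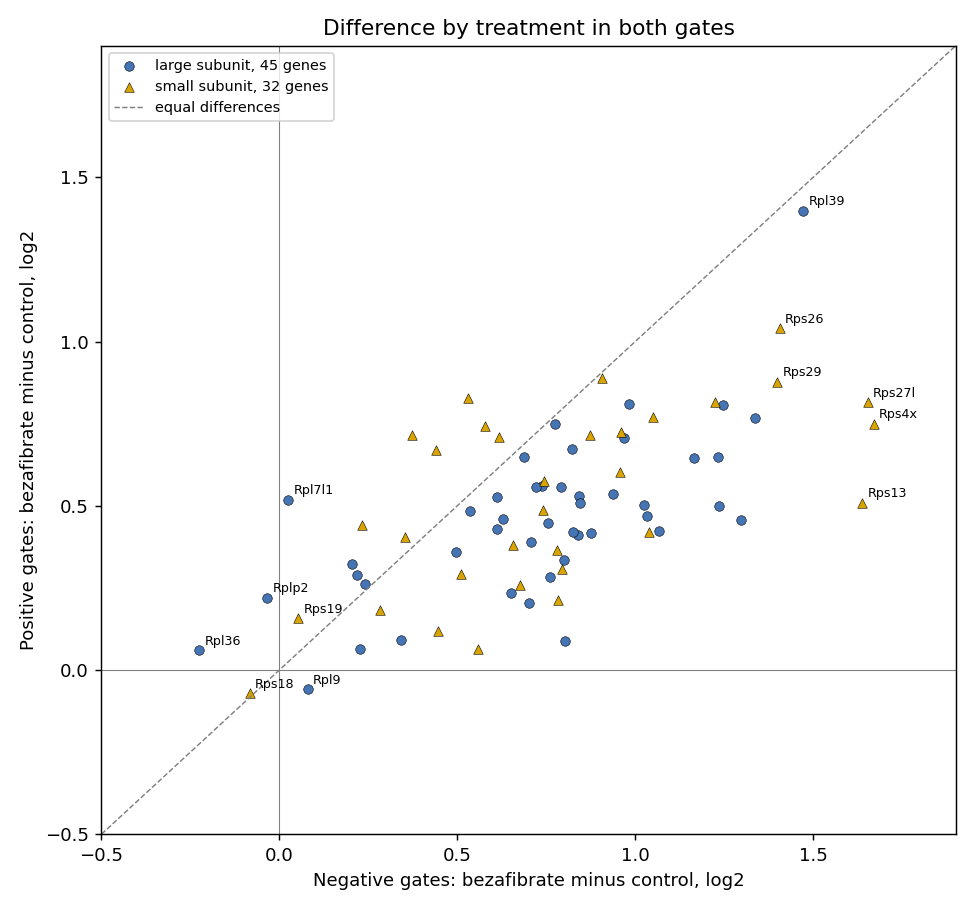
log2 difference of bezafibrate minus control in the negative gates (x axis) and in the positive gates (y axis) for the 77 genes analysed; circles are large subunit, triangles small subunit, and the dashed line marks equal differences. Most points lie right of the dashed line, Rpl39 is highest on the y axis at 1.40, and Rps18 is below 0 on both axes.

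The genes kept a broadly similar order in both gates. Across the 77 genes the 2 treatment differences had a Pearson r of 0.65 and a Spearman rho of 0.61, against 0.83 and 0.82 across all 8973 genes. These are descriptions across genes, which share their libraries and are not independent. The treatment difference was larger at low than at high mean value, with r of -0.34 in the negative and -0.45 in the positive gate across the 77 genes. With transcript length r was -0.02 and -0.09.

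Short transcripts as a whole were higher in the bezafibrate libraries, and 74 of the 77 genes fell in the shortest of 5 equal classes of transcript length, of 105 to 1648 bases. The median difference of all 1736 genes of that class was 0.35 in the negative gate, and that of the 74 ribosomal protein genes in it was 0.77. The corresponding values of the positive gates were 0.24 and 0.46. The medians of all genes fell with length to -0.14 and -0.10 in the longest class. The ribosomal protein medians were thus above those of genes in their own length class, and the part of length in them was not tested.

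The gate differences within a treatment were smaller and differed in sign between treatments. In control mice the positive minus negative gate median was 0.06 over the 77 genes, with 50 above 0, against a median of 0.01 and 52.1% above 0 over all genes. The counts at 2-fold were 0 higher and 0 lower, against 0.145% and 0.189% of all genes. The counting interval lay above 1 for 4 genes, against 4.93% of all genes, and below 1 for 1, against 4.41%. The largest differences were those of Rps13 at 0.60, Rps27l at 0.55, Rpl37 at 0.43, Rpl32 at 0.33 and Rpl27 at 0.29. The lowest were those of Rpl7l1 at -0.60, Rps28 at -0.35, Rps20 at -0.29, Rps16 at -0.28 and Rps27rt at -0.20. At 1.5-fold 1 gene was higher, against 1.77% of all genes, and 1 lower, against 1.6%. Of the 10 genes named only Rps13 (1.56-fold, 1.07 to 2.31) and Rpl7l1 (0.643-fold, 0.468 to 0.878) had an interval that left out 1.

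In bezafibrate mice the positive minus negative gate median was -0.23, with 63 of 77 genes below 0, against a median of -0.01 and 51.6% below 0 over all genes. The other 14 were above 0, against 48.4%. No gene passed 2-fold in either direction, against 0.134% of all genes higher and 0.123% lower. At 1.5-fold 0 were higher, against 2.06%, and 2 lower, against 2.64%. The counting interval lay below 1 for 41 genes, against 18.6% of all genes, and above 1 for 4, against 13.7%. The summed value was 0.856-fold that of the negative gate (0.844 to 0.869). With totals that leave out Rn45s the median was -0.082, against 0.13 over all genes, and 12 single genes changed sign. The lowest differences were those of Rps4x at -0.68, Rps10 at -0.61, Rplp0 at -0.58, Rpl35a at -0.58 and Rpl7 at -0.55. Rps10 had values of 40.3, 26.0 and 38.1 in the negative, positive and high gates of these mice. Among the highest differences were those of Rplp2 at 0.32, Rps27a at 0.23, Rps19 at 0.21 and Rplp1 at 0.18. The interval of Rplp2 (1.25-fold, 1.07 to 1.46) left out 1.

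The high gate of bezafibrate mice lay near the positive gate and below the negative gate. High minus positive had a median of -0.02, which turned to 0.034 with column totals, with 38 genes above and 39 below 0, against 0.00, 49.9% and 50.1% over all genes. The counts at 2-fold were 0 higher and 0 lower, against 0.0669% and 0.078% of all genes, and at 1.5-fold 0 higher and 1 lower, against 0.802% and 0.97%. The counting interval lay above 1 for 7 genes, against 8.21% of all genes, and below 1 for 12, against 7.75%. Rps27rt was 0.572-fold (0.470 to 0.696), with values of 41.0 in the positive and 23.5 in the high gate, while Rps10 was 1.47-fold (1.21 to 1.79). Also on the low side were Rps28, Rps27l and Rpl37a, with log2 differences of -0.49, -0.38 and -0.32. Rps4x, Rps7, Rpl3 and Rps23 followed on the high side with 0.33, 0.28, 0.28 and 0.22.

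High minus negative had a median of -0.26 with 67 of 77 genes below 0, against -0.02 and 53% below 0 over all genes. The other 10 were above 0, against 47%. The counts at 2-fold were again 0 higher and 0 lower, against 0.111% and 0.156% of all genes, and at 1.5-fold 0 higher and 4 lower, against 1.5% and 2.28%. The counting interval lay below 1 for 44 genes, against 16.9% of all genes, and above 1 for 5, against 12.2%. The lowest were Rpl35a at -0.76, Rps28 at -0.75, Rps27rt at -0.68 and Rps27l at -0.67. The highest were Rplp2 at 0.29, Rps27a at 0.28, Rpl3 at 0.25 and Rplp1 at 0.25. These last comparisons share the bezafibrate negative or positive library with those above.

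**Figure D4:**
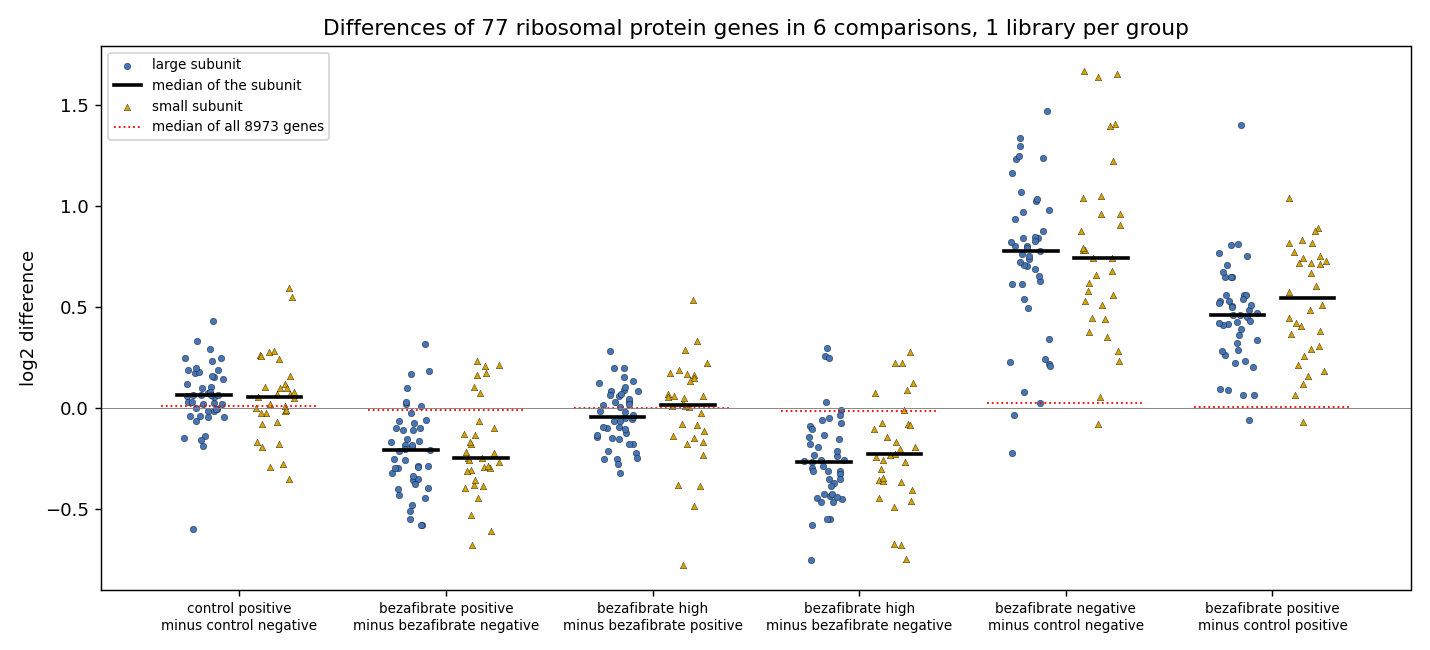
log2 differences of the 77 genes in the 6 comparisons, 1 point per gene, with the median of each subunit as a black bar and the median of all 8973 genes as a dotted line. The subunit medians lie side by side in each comparison, near 0.06 in the control gates, at -0.21 and -0.25 in the bezafibrate gates and at 0.78 and 0.74 in the negative gates by treatment.

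The median of the large minus that of the small subunit genes was -0.08 to 0.04 over the 6 comparisons. For bezafibrate minus control they were 0.78 and 0.74 (negative gates) and 0.46 and 0.54 (positive gates). For positive minus negative they were 0.06 and 0.05 in control mice, and -0.21 and -0.25 in bezafibrate mice. For high minus positive they were -0.04 and 0.02, and for high minus negative -0.27 and -0.23. By treatment in positive gates, 10 of 45 large and 15 of 32 small subunit genes were 1.5-fold higher, against 15.7% of all genes. The summed fold there was 1.34 for the large and 1.33 for the small subunit. For high minus negative in bezafibrate mice it was 0.838 for the large (0.823 to 0.853) and 0.875 for the small subunit (0.855 to 0.896).

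The stalk genes differed among themselves. Rplp0, the base of the stalk, had 66.1 and 73.7 in control and 157, 105 and 116 in bezafibrate libraries. Its folds by treatment were 2.38 (2.13 to 2.65) for the negative and 1.42 (1.27 to 1.58) for the positive gates. Rplp1 had 55.0 and 57.6 in control and 63.6, 72.2 and 75.5 in bezafibrate libraries, with a fold of 1.16 in the negative gate (0.993 to 1.35). Rplp2 had 44.1 and 46.1 in control and 43.1, 53.9 and 53.03 in bezafibrate libraries, with a fold of 0.975 in the negative gate (0.818 to 1.16). Within bezafibrate mice Rplp0 was lowest in the positive gate and Rplp1 and Rplp2 were lowest in the negative gate.

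For the following genes, named for known roles or for lying outside the naming rule, the bezafibrate values were all above both control values. Rps6, the substrate of the S6 kinases downstream of mTORC1, had 52.6 and 52.2 in control and 97.2, 86.4 and 84.9 in bezafibrate libraries, without overlap. Rpsa had 117 and 104 in control and 185, 136 and 154 in bezafibrate libraries. Rpl41 had 74.1 and 75.7 in control and 114, 102 and 104 in bezafibrate libraries. Rps27a, which is made as a fusion with ubiquitin, had 23.4 and 24.6 in control and 35.5, 41.8 and 43.2 in bezafibrate libraries, and in contrast to most genes its lowest bezafibrate value was in the negative gate. Fau, which encodes a ubiquitin-like fusion of a small subunit protein, had 79.7 and 85.2 in control and 90.9, 94.9 and 92.9 in bezafibrate libraries. Gnb2l1, the older symbol of the ribosomal scaffold Rack1, had 41.3 and 42.3 in control and 80.4, 59.4 and 62.0 in bezafibrate libraries.

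Several genes were listed near 0 beside a copy with almost the same coding sequence. Rps27 and Rps27rt have an identical open reading frame of 255 bases in GENCODE vM21, shown here because reads within it cannot be placed on either locus.
Rps27 and Rps27rt: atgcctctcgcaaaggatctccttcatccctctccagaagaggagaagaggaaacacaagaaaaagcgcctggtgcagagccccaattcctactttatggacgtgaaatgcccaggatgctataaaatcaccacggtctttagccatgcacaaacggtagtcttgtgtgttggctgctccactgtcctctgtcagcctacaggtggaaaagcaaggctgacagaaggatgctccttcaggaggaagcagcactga
Rps27, at chr3:90212522-90213651, had values of 0.616, 1.51, 0.400, 0.473 and 0.666. Rps27rt, at chr9:114982366-114982739, had 26.1, 22.6, 38.1, 41.0 and 23.5. Their sums were 26.7, 24.1, 38.5, 41.5 and 24.1, so the bezafibrate high gate lay with the control libraries for this pair.

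Rpl26, Rpl30 and Rpl34 stood beside processed pseudogene loci. The windows below show 61 coding bases of each gene and its copy, 5′ to 3′, with the base that differs in capitals. Substitutions are counted from 1 at the A of the start codon, with the gene's base first.
Rpl26 (chromosome 11): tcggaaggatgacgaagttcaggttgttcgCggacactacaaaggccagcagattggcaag
Gm15772 (chromosome 5): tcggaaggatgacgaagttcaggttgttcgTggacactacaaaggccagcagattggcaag
Rpl30 (chromosome 15): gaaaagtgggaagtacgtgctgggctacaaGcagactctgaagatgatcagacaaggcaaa
Gm12191 (chromosome 11): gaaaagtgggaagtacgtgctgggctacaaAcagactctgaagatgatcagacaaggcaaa
Rpl34 (chromosome 3): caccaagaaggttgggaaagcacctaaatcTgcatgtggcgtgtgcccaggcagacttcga
Rpl34-ps1 (chromosome 6): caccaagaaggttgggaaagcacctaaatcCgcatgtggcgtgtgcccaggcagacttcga
Rpl26 and Gm15772 differ at 2 of 438 bases (C177T and T288C), Rpl30 and Gm12191 at 1 of 348 (G96A), and Rpl34 and Rpl34-ps1 at 2 of 354 (T132C and C318G).

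Rpl26, an exit-tunnel protein, was listed at 0 in 4 libraries and at 2.21 in bezafibrate positive, and a count of 0 allows a value of up to 0.616 in control negative and 0.400 in bezafibrate negative. Gm15772 had 25.5 and 23.9 in control and 49.1, 40.03 and 36.0 in bezafibrate libraries. Bezafibrate to control folds of the summed pair were 1.93 (1.57 to 2.38) for the negative and 1.77 (1.41 to 2.22) for the positive gates. Rpl30 was listed at 0 in both control libraries and at 2.53, 3.31 and 2.80 in bezafibrate libraries, while Gm12191 had 10.3, 9.49, 22.4, 14.3 and 13.2. Their sum was higher with bezafibrate in the negative gates, 2.43-fold (1.77 to 3.39). Rpl34 had 2.67, 3.02, 3.07, 2.52 and 6.26 and Rpl34-ps1 had 6.78, 10.6, 19.995, 21.0 and 13.9, with a sum that was 2.44 times as high with bezafibrate in the negative gates (1.75 to 3.46). For these pairs the value of the named gene and that of its copy are uncertain, and the sources used here do not say how reads that match several loci were counted.

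**Figure D5:**
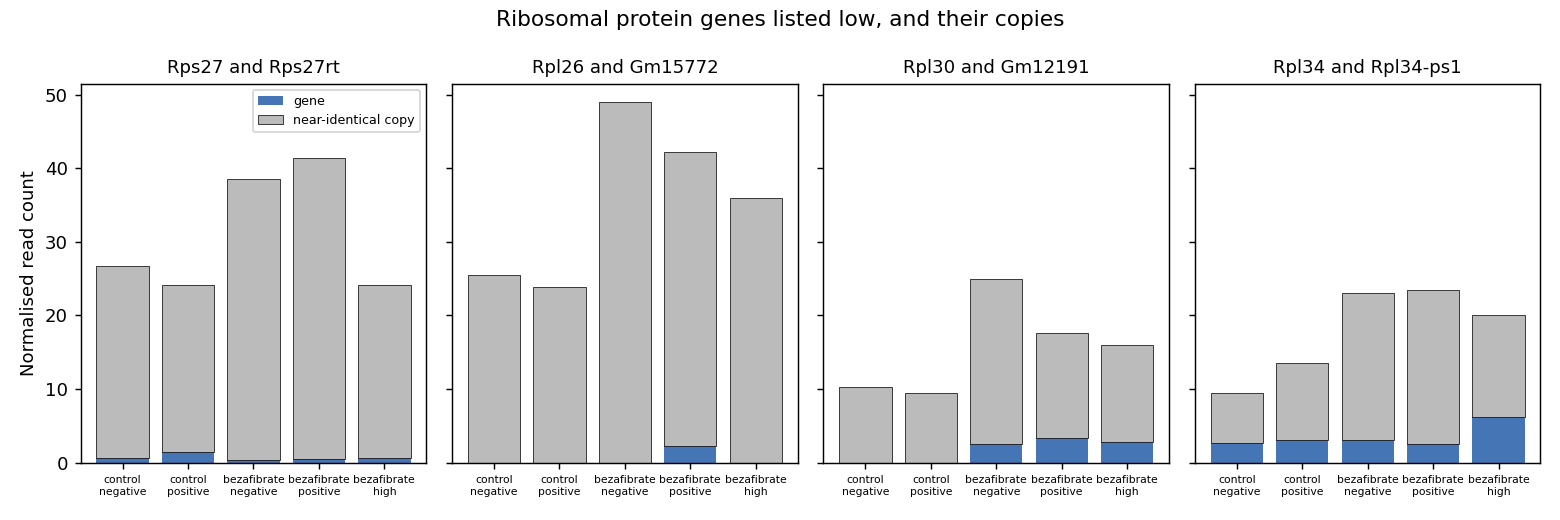
Normalised read counts of 4 genes listed low (blue) stacked with those of their near-identical copies (grey) in the 5 libraries, on 1 linear axis from 0. Most of the stacked value is that of the copy for all 4 genes, and the stacks are higher in bezafibrate negative than in both control libraries.

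The other loci in the table that share sequence with the family differed in level, and those paired with Rpl14, Rpl31, Rplp2, Rps15a and Rps26 were at 1.73 or lower in every library. Rpl21 shares 31.1% of its stretches of 50 bases with BC004004, which had 19.3 and 19.0 in control and 38.5, 28.4 and 26.6 in bezafibrate libraries. Rpl21 itself had 61.6 and 55.0 in control and 72.2, 57.5 and 52.0 in bezafibrate libraries. Its control and bezafibrate values overlapped, while those of BC004004 did not, and the sum was 1.37-fold higher in the bezafibrate negative gate (1.21 to 1.55). Rpl37rt, which differs from Rpl37 at 1 of 294 bases (G249A), had 2.87, 3.02, 1.73, 2.68 and 0.666 in the 5 libraries, and Rpl37 had 13.3 and 18.3 in control and 29.1, 24.9 and 24.1 in bezafibrate libraries. Rpl22l1 had 3.90, 2.37, 5.33, 4.10 and 5.996, and its copy Gm15421 had 2.26, 0.647, 0.133, 0.788 and 1.87. Rps4l had 2.05, 2.37, 3.87, 5.20 and 7.99. Rpl36al, a paralogue of Rpl36a, had 25.9 and 30.8 in control and 47.1, 41.3 and 42.1 in bezafibrate libraries. Shared sequence was the rule in this family: 83 of the 84 transcripts shared at least 1 stretch of 50 bases with a transcript of another gene, 51 shared over 50% of such stretches, and 14 had a partner in the table that held 20% or more of them. The median of the genes analysed was 55.5%. By treatment, the 39 genes with less shared sequence had a median of 0.75 in the negative and 0.47 in the positive gate. The 38 with more had 0.78 and 0.49. In the negative gate the differences ran from 0.02 to 1.65 with less shared sequence and from -0.23 to 1.67 with more. The genes lower with bezafibrate there, Rpl36, Rps18 and Rplp2, shared 81.1, 86.7 and 65.1% of their stretches. Rps4x, at the other end, shared 72.2%. The part of shared sequence in the differences of single genes was not tested.

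Pyrimidine runs like that of the TOP tract were looked for around the annotated start sites. RefSeq promoter windows of GRCm38.p6 covered 63 of the 84 genes with 74 windows. From 20 bases before to 30 bases after the start, 67.6% of these windows held a C followed by 5 or more C or T on the coding strand, against 34.3% of all 32851 windows. Of the genes analysed that had a single window, the 50 bases of the 3 with the lowest and the 3 with the highest difference by treatment in the negative gate are shown 5′ to 3′ with the longest such tract (the first of equals) in capitals, to set the start sites beside the differences.
Rps18 (chr17:33955636-33955685, minus strand): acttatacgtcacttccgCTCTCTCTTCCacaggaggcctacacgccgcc
Rplp2 (chr7:141447631-141447680, plus strand): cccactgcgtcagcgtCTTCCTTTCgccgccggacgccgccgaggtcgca
Rpl7l1 (chr17:46782627-46782676, minus strand): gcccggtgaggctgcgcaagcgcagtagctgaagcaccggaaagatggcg
Rpl39 (chrX:37085193-37085242, minus strand): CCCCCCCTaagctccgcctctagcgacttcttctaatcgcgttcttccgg
Rps13 (chr7:116334161-116334210, minus strand): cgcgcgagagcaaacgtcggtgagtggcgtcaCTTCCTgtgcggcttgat
Rps4x (chrX:102189362-102189411, minus strand): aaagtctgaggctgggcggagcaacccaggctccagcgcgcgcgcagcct
Rps18 and Rplp2, which did not differ by treatment in the negative gate beyond counting error, held tracts of 11 and 9 bases, and Rpl7l1 held none. Rpl39 and Rps13, which were higher, held tracts of 8 and 6 bases, and Rps4x held none. Only the tracts of Rps18 and Rplp2 among these spanned the annotated start. That of Rpl39 lay wholly before it, from base -20 to -13, with a second run of equal length after it, and that of Rps13 lay from base 13 to 18 of the transcript. Over the genes analysed, the 42 with a tract anywhere in a window had a median difference of 0.78 in the negative gate. The 16 without had 0.81. Such a tract could lie away from the start, as from base -20 to -12 in Rpl5 and from 15 to 30 in Rpl11. The split therefore does not part TOP messages from others. For the positive gates the medians were 0.46 and 0.49.

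Other short motifs were counted in the whole 300-base windows on both strands. CCGGAAG, bound by ETS factors, was in 35.1% of the ribosomal protein windows against 8.86% of all windows, and AAGATGGC, bound by YY1, in 10.8% against 2.75%. GGGCGG, bound by SP1, was in 60.8% against 35.7%, and the cyclic AMP response element TGACGTCA in 6.76% against 1.79%. The direct repeat of AGGTCA with an A between the copies is a strict form of the element that PPARs bind. It was in 0 of the 74 windows and in 0.0152% of all windows, 5 of 32851. So rare a run says nothing, by its absence from 74 windows, about PPAR elements at these genes. A match is a run of letters, not a measured site.

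Other genes of translation and ribosome assembly were set beside the family by lists, with the counts of genes whose 3 bezafibrate libraries were all above or all below both control libraries. Over all genes 35.7% were above and 33.8% below. Of 10 elongation and termination factors 7 were above and 0 below, with medians of 0.42 in the negative and 0.17 in the positive gate. Eef1a1, which brings aminoacyl-tRNA to the ribosome, had 753 and 759 in control and 1800, 1250 and 1388 in bezafibrate libraries, and Eef2, the translocase, had 622 and 610 in control and 925, 715 and 821 in bezafibrate libraries. Abce1, a ribosome recycling factor, had log2 differences of 0.72 and 0.36. Of 36 initiation factors 13 were above and 9 below, with medians of 0.15 and 0.05. Eif3e and Eif3h, subunits of the eIF3 scaffold, had differences of 1.63 and 1.35 in the negative gate, and Eif4g1 and Eif4g2 of 0.14 and 0.39. Of 19 other genes known for TOP tracts 12 were above and 2 below, with medians of 0.57 and 0.23.

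Ribosome biogenesis factors differed in the other direction. Of 72 ribosome biogenesis factors 6 were above and 46 below, with medians of -0.41 in the negative and -0.35 in the positive gate. Ppan, needed for large subunit assembly, had 41.3 and 37.1 in control and 7.60, 11.2 and 10.1 in bezafibrate libraries. Mdn1, the remodelling ATPase of the pre-large subunit, had 78.2 and 81.1 in control and 48.7, 57.7 and 52.9 in bezafibrate libraries. Ncl, the nucleolar protein nucleolin, had log2 differences of 0.21 and -0.08, and Nop10, a small box H/ACA particle protein, of 1.83 and 1.14. Of 14 RNA polymerase I genes 1 was above and 6 below, with medians of -0.10 and -0.43 and 6 genes higher and 8 lower in the negative gate, up to 0.75. Polr1a, the largest subunit, had differences of -0.67 and -0.86, Polr1b of -1.29 and -0.95, Taf1a of -0.98 and -0.50, and the factor Ubtf of -0.22 and -0.40.

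Of 22 mTORC1 and TOP regulators 7 were above and 10 below, with medians of -0.15 and 0.00. Myc, a transcription factor that drives ribosome synthesis, had 151 and 163 in control and 26.0, 31.8 and 28.2 in bezafibrate libraries, without overlap. Larp1, which binds TOP messages, had log2 differences of -0.22 and -0.27, Deptor of 0.56 and 0.15, and Eif4ebp1, a translational repressor under mTORC1, of 0.85 and 0.47. Of 12 genes of ribosome quality control and the p53 link 0 were above and 8 below, among them Cdkn1a with differences of -0.94 and -1.07 and Zfp598 with -0.80 and -0.70, while Gcn1l1 had -0.52 and -0.46.

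Higher values in the bezafibrate libraries were also those of other protein complexes. Of 63 mitochondrial ribosomal protein genes 47 were above and 2 below, with medians of 0.73 in the negative and 0.38 in the positive gate. Mrpl13 had differences of 1.81 and 1.25, Mrpl38 of 0.54 and 0.75, Mrpl12 of 0.21 and 0.28, and Mrpl18 of -2.38 and -2.05. Of 35 proteasome subunit genes 29 were above and 2 below, with medians of 0.77 and 0.50. Psma6 and Psma2, of the core particle, had differences of 2.32 and 2.20 in the negative gate. Those of Psmd3 and Psmd2, of the regulatory particle, were -0.23 and 0.38 in the same gate. No difference between these lists and the ribosomal protein genes was tested.

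The treatment term of an additive limma fit over the 4 libraries of the negative and positive gates was higher in bezafibrate for 62 of the 77 genes at a Benjamini-Hochberg adjusted p under 0.05, against 24.5% of all genes. It was lower for 0, against 20.8% of all genes. At an unadjusted p under 0.05 limma gave 64 higher and 0 lower, against 27.7% and 24% of all genes. edgeR on the recovered reads gave 61 higher and 0 lower, against 24.1% and 21.7% of all genes. The fit has 1 residual degree of freedom. Its error is how far treatment differences varied between the gates, shared over all genes analysed by a trended prior. A gene's own variation between the gates thus weighs little in it. Rps4x, whose differences in the gates lay further apart than those of Rpl39, had the smaller standard error, 0.168 against 0.222. The fit is not a test between replicates or mice. With column totals that leave out Rn45s 41 of 77 were higher and 0 lower, against 16.5% and 30.3% of all genes.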

How the data were processed

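The deposited table holds 1 normalised signal per gene symbol and library for 5 libraries. Tools named in the submitters' processing notes are edgeR, RSEM, Bowtie2 and Trimmomatic 0.36, with mm10 as the build; the sources used here do not give their roles, the annotation or the normalization. Per the labels' protocols, libraries were directional and made after depletion of ribosomal RNA. The deposited signal is read counts scaled by a single factor in each library: 100% of values in every library came out whole within 0.001 reads, and 3 reads were taken as the floor of a gene listed at 0. Totals were 5454866, 5056884, 7146578, 5993366 and 6831281 reads in control negative, control positive and bezafibrate negative, positive and high.

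Genes with a mean of at least 5 pseudocounts were analysed. Differences of log2(value + pseudocount) were counted at 2-fold; intervals are exact conditional 95% Clopper-Pearson intervals. Reads carried no molecular identifiers, so they are not independent molecules. The additive fit of gate and treatment used limma 3.58.1 (R 4.3.3, trended prior, Benjamini-Hochberg adjustment). edgeR 4.0.16 was run as a count test on the recovered reads, an alternative added after seeing the data; it called 2162 genes higher and 1944 lower, and limma 2196 and 1868. Other steps ran in Python 3.11.15 with scipy 1.17.1, pandas 2.3.3 and numpy 2.4.6, and the steps were tested on simulated data.

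Lengths, coordinates and transcripts came from GENCODE vM21 (GRCm38), as the shortest coding transcript with the best APPRIS tag, and start windows from RefSeq GRCm38.p6. Named genes were the 5 highest and 5 lowest members per comparison, the 5 most abundant per kb in each subunit, stalk genes, Rpsa, Rps6, Rps27a, Rpl41, close copies, genes at 0 or under the filter, Fau, Gnb2l1, and the 2 highest and 2 most extreme genes of each list; a few genes that this rule names are not reported here. The members and lists were chosen with earlier results of these data known. The alternatives were other scalings, pseudocounts, filters and fold limits.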

Additional observations from a re-analysis of the deposited data

Results flagged for a closer look

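The difference between the positive and the negative gate had opposite signs in control and bezafibrate mice, and none of these differences between treatments was tested, since each group is 1 library. The median log2 difference, positive minus negative, was 0.06 over the 77 ribosomal protein genes in control mice and -0.23 in bezafibrate mice. For the large subunit it was 0.06 and -0.21, and for the small subunit 0.05 and -0.25. The bezafibrate gate difference was lower than the control gate difference for 62 of the 77 genes, against 53.1% of all 8973 genes, with a median gap of -0.26, against -0.03 over all genes.

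For 3 genes the counting intervals of the gate fold lay on opposite sides of 1 in the treatments. They were named for this after their values were seen. The share of all genes with such intervals was not counted, so the 3 genes are described by their values only. Rps13 was 1.56-fold in control mice and 0.682-fold in bezafibrate mice. Rpl27a had values of 61.6 and 72.4 in the control negative and positive gates and 108 and 77.1 in the bezafibrate ones. It was 1.18-fold and 0.713-fold, and its control interval of 1.003 to 1.38 began close to 1. Rps9, with 45.4 and 55.2 in control and 67.3 and 57.7 in bezafibrate mice, was 1.22-fold and 0.857-fold.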

How the results depend on the processing

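No paired analysis was possible because each group is 1 library and the labels carry no replicate numbers, and for the same reason no library could be left out within a group. Of 462 differences of single genes, 45 shifted by more than the half-width of their log2 counting interval with column totals and 51 with totals that leave out Rn45s; 0 shifted that far with 5 times the pseudocount or no filter, and no gene at 2-fold or more changed sign. Scaling shifted all genes with the family: in the negative gate by treatment, column totals gave a median of 0.99 for the family and 0.25 for all genes, and totals without Rn45s 0.51 and -0.22. In the positive gate the values were 0.69 and 0.20, and 0.37 and -0.11. Over the gates, column totals gave 0.10 in control mice, 0.034 for high minus positive and -0.19 for high minus negative; totals without Rn45s gave -0.082 for bezafibrate positive minus negative (all genes 0.13), -0.048 for high minus positive and -0.14 for high minus negative (all genes 0.09). With 5 times the pseudocount the medians were 0.69, 0.43 and, for high minus negative, -0.23, and without close copies bezafibrate positive minus negative was -0.25. Counts of genes at 2-fold or more higher in bezafibrate were 37 and 8 with column totals and 8 and 1 without Rn45s in the negative and positive gates; in the positive gate they were 1 with 5 times the pseudocount (3.04% of all genes) and 4 with no filter (4.76%). At 1.5-fold they were 54 and 25; in the gates, 1 higher and 1 lower in control mice, 2 lower for bezafibrate positive minus negative, 1 lower for high minus positive and 4 lower for high minus negative. With no filter, 1 gene was 2-fold higher in bezafibrate positive minus negative (0.315% of all genes), and 1 higher (0.609%) and 2 lower (0.344%) in high minus positive. The treatment term without Rn45s called 41 genes in place of 62. The cause of these shifts was not tested, except that a lower fold limit and more genes give more calls by construction. Depth limits the genes with few reads, such as Rps27l and Rpl39.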
